A study of Mus musculus with 8 samples.

Results

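The mitochondrial ribosomal proteins are the nuclear-encoded protein subunits of the ribosome inside mitochondria. Their genes were taken here by symbol, as every gene named Mrpl or Mrps followed by a digit and carrying no pseudogene suffix, which gave 77 of the 16308 genes in the expression table. By the usual structural assignment, 26 of them encode proteins of the small subunit and 50 of the large subunit, among them Mrps18a and Mrps30, whose products sit in the large subunit in spite of their names. The remaining gene, Mrps36, was once counted as a small-subunit protein and is now known as part of the 2-oxoglutarate dehydrogenase complex. All 77 passed the filter on low counts and were tested, with 153 to 3518 reads per gene and library. Mrpl53 was not analysed here.

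The mitochondrial ribosome descends from that of a bacterium, and many of its proteins still have bacterial counterparts, while others are found only in mitochondria. It makes the few proteins encoded in mitochondrial DNA, which are core parts of the respiratory chain and of ATP synthase. Its proteins are made in the cytosol and imported, so the mitochondrial ribosome is built from the output of both genomes. Naive T cells are quiescent, and activation is known to bring mitochondrial growth and a rise of mitochondrial translation.

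The study compared naive CD4+ T cells with Th17 cells, the helper T cells that produce interleukin-17, both wild-type by the column names, in mice of the C57BL/6 strain. Naive cells were untreated (2 libraries), and Th17 cells were grown from naive cells for 72 h (2 libraries). Per the labels' treatment field, their medium held 0.25 µg/mL of antibody to CD3ε, 1 µg/mL of antibody to CD28, 0.1 ng/mL of TGF-β and 20 ng/mL of IL-6. A further 2 wild-type and 2 DDX5-deficient Th17 libraries of 72 h under the same additions have lists of edited RNA sites alone. The labels give no age, sex or cell number, and they title the DDX5-deficient samples DDX5∆T without describing the deletion of this helicase gene. The design text calls the replicates independent. Library 2 of both groups carries the same sample number in the labels and library 1 does not.

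The cells carried the markers of their labels. The Th17 markers Il17a, Il17f, Il23r and Ccr6 rose, and all 5 naive markers fell. CPM is a gene's read count brought to a common library size, here after scaling by TMM, a method that sets the bulk of the genes level between libraries. All 3 measured CD4 T cell markers were lower in Th17 cells: Cd4 went from 1342 ± 97.6 to 593 ± 48.1 CPM (SD, n = 2), a log2 of -1.18, and Cd3d and Cd3e changed by -1.80 and -2.17. Summed levels of 4 B cell markers were 2.12 and 2.75 CPM in naive and 0.451 and 1.14 in Th17 libraries, of 4 myeloid markers 5.09 and 4.30 against 3.57 and 3.64, of 4 CD8 and NK markers 22.1 and 28.9 against 14.8 and 13.95, and of 4 erythroid markers 10.2 and 6.83 against 0.104 and 6.97. Within the myeloid list Cd14 rose from 0.0531 and 0 to 3.26 and 2.65 CPM, while Lyz2 and Itgam were called lower, at -3.82 and -4.74 in log2. Within the CD8 and NK list Cd8b1 had 20.85 and 27.4 CPM in naive and 14.7 and 13.3 in Th17 libraries. Cd8a, Ncr1 and Klrb1c reached at most 0.704, 0.493 and 0.743 CPM in any library. Ms4a1 had no read in 3 of the 4 libraries. The part of such cells in the results below was not tested. Between 11768994 and 26624436 reads were assigned to genes in each library.

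Mitoribosomal protein genes moved upward more often than downward, and mostly by small steps. Of the 77 genes, 33 rose and 5 fell in Th17 cells, and 39 were not called. A gene was called where edgeR's quasi-likelihood p, adjusted by Benjamini and Hochberg's method over all genes, was under 0.05. These are 42.9% higher and 6.49% lower calls, beside 34.3% higher and 30.7% lower calls among all 11989 genes tested. The median log2 fold change of the 77 genes was 0.39, with quartiles at 0.02 and 0.64, beside 0.06 for all tested genes, with quartiles at -0.73 and 1.16. The family's median fell to 0.23 without Th17 library 1, where that of all tested genes was 0.12. Without naive library 1 the medians were 0.26 and 0.20, so the excess over all genes was 0.07. Leaving out a library changed the set of tested genes, to 12963 without Th17 library 1 and 13149 without naive library 1. The medians of all tested genes are thus over unlike sets. Steps of at least 1 in log2 were found in 13% of the mitoribosomal genes and in 46.3% of all tested genes. Of those called, 8 of the 77 genes rose by at least 1, beside 24.8% of all tested genes, and 2 fell by at least 1, beside 18% of all. In these bulk samples more RNA per cell and more cells of a kind cannot be told apart.

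**Figure D1:**
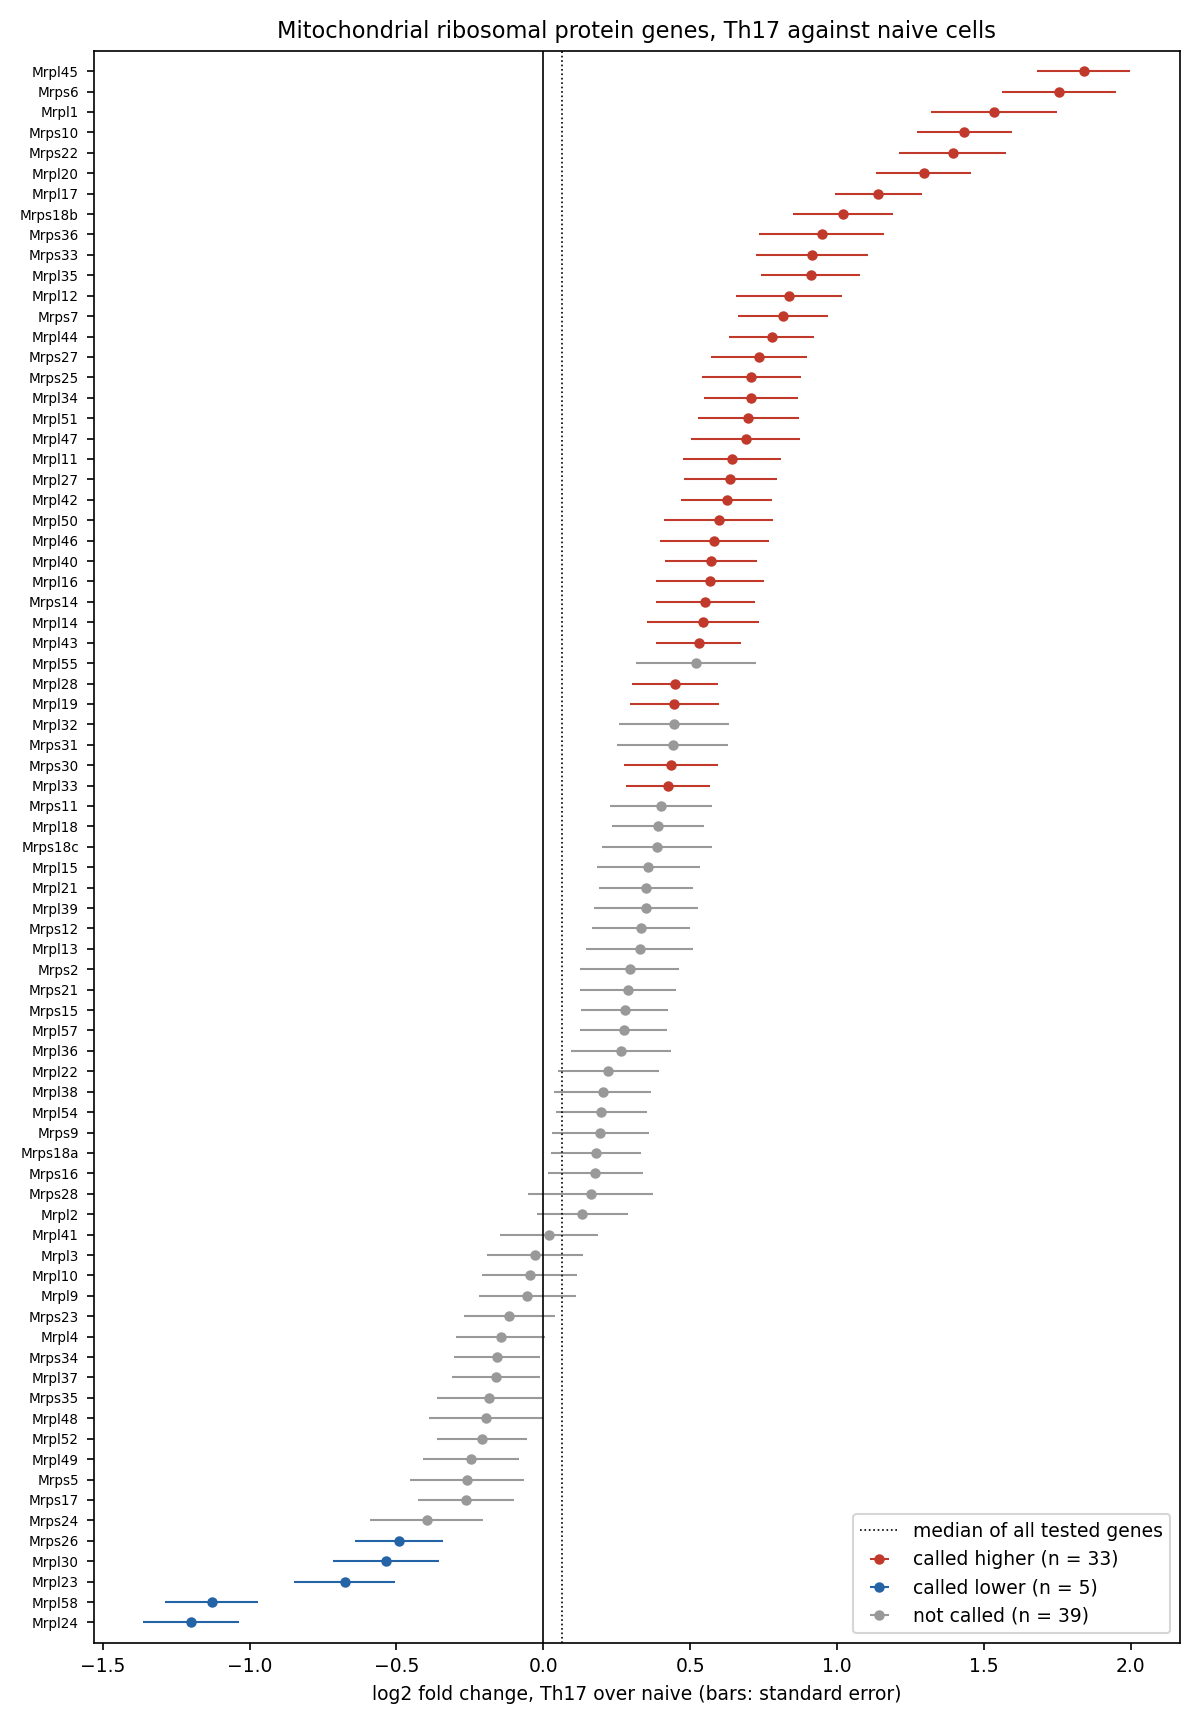
Th17 over naive log2 fold change for each of the 77 mitoribosomal protein genes (points) with its standard error (bars) from the edgeR fit on 2 naive and 2 Th17 libraries, coloured by call at an adjusted p under 0.05. The 33 genes called higher reach up to 1.84, the 5 called lower down to -1.20, and the dotted line marks the median of all tested genes at 0.06.

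Both Th17 libraries lay above both naive libraries in 53 genes, 68.8% of the 77 beside 44.1% of all tested genes. They lay below in 12 genes, 15.6% beside 40.8%. In the other 12 genes the groups overlapped. Summed over the 77 genes, the level was 2619 and 2964 CPM in the naive and 3573 and 3209 CPM in the Th17 libraries. As a share of all reads on genes, without TMM, this was 0.242% and 0.261% in naive and 0.387% and 0.360% in Th17 libraries. The whole set also differed between replicates. Naive library 2 lay above naive library 1 in 61 of 77 genes and Th17 library 1 above Th17 library 2 in 69, with median gaps of 0.17 and 0.16 in log2. The count of higher calls followed single libraries. Without naive library 1 or Th17 library 1 the family's share of higher calls was below that of all tested genes. Without naive library 1, 12 genes were called higher and 3 lower (15.6% and 3.90%, beside 18.5% and 19.5% of all genes). Without naive library 2 they were 18 and 3 (23.4% and 3.90%, beside 17.8% and 20.5%).

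The largest rise was that of Mrpl45 (ENSMUSG00000018882.12, mm10 chromosome 11, 97315716 to 97329920), whose product sits at the exit of the ribosomal tunnel and helps to hold the ribosome at the inner mitochondrial membrane. Mrpl45 had 31.0 and 34.1 CPM in the naive libraries and 122 and 111 CPM in the Th17 libraries. The Th17 libraries lay far above both naive ones, 1.84 in log2 (SE 0.16, edgeR's adjusted p 1.5e-05). Among all tested genes this rise stood at percentile 81.0, so many genes outside the family rose by more.

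Next came Mrps6, the counterpart of bacterial protein S6 in the small subunit, with 9.34 and 11.97 CPM in naive and 38.5 and 33.2 in Th17 libraries, a log2 of 1.75 (SE 0.20). The transporter gene Slc5a3 lies within Mrps6 on the same strand and rose by 1.28, so reads in their shared span could be assigned to either. Mrpl1, which encodes the protein of the mobile L1 stalk, had 15.3 and 19.9 CPM in naive and 58.9 and 42.3 in Th17 libraries. Its log2 fold change was 1.53 (SE 0.21), and its Th17 libraries stood further apart than those of any other family member, at a gap of 0.48 in log2. For both genes the lower Th17 library was still above the higher naive one.

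A further 3 genes were among the 6 largest rises. The small-subunit gene Mrps10 went from 20.3 and 17.6 CPM to 54.0 and 48.3 CPM, a log2 of 1.43 (SE 0.16). Mrps22, a small-subunit protein found only in mitochondria, had 12.3 and 10.8 CPM in naive and 32.0 and 28.5 in Th17 libraries, a log2 of 1.39 (SE 0.18). Mrpl20, a counterpart of a bacterial protein that binds the large ribosomal RNA early in assembly, had 30.7 and 33.0 against 85.1 and 70.9 CPM, a log2 of 1.30 (SE 0.16). For these 5 genes edgeR's adjusted p lay between 6.8e-05 and 3.8e-04. All 6 of the largest rises were called in each of the 11 alternative analyses.

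The largest fall was that of Mrpl24 (ENSMUSG00000019710.13, mm10 chromosome 3, 87919506 to 87923672), a large-subunit protein near the tunnel exit. Mrpl24 had 146 and 177 CPM in the naive libraries and 72.5 and 67.8 CPM in the Th17 libraries, so that even the lower naive library had about the sum of both Th17 ones. The log2 fold change of Mrpl24 was -1.20 (SE 0.16, edgeR's adjusted p 2.3e-04). Mrpl24 overlaps Rrnad1 on the opposite strand over 1072 bases of gene span, and Rrnad1 changed by -0.99. The use of strand in the authors' counting is not stated, and without it the reads of such a pair cannot be told apart.

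Mrpl58 encodes a peptidyl-tRNA hydrolase built into the large subunit, which frees chains from stalled mitochondrial ribosomes. It lay at 58.4 CPM in both naive libraries and at 29.0 and 24.2 CPM in the Th17 libraries, a log2 of -1.13 (SE 0.16) and an adjusted p of 2.7e-04 by edgeR. Mrpl58 overlapped no other protein-coding gene. Like Mrpl24, it was called lower in each of the 11 alternative analyses.

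The other 3 falls were smaller. Mrpl23, another protein of the tunnel exit, went from 32.5 and 34.1 to 23.0 and 18.5 CPM, a log2 of -0.68 (SE 0.17). Mrpl30 had 67.8 and 91.0 CPM in naive and 56.4 and 53.0 in Th17 libraries, a log2 of -0.54 (SE 0.18), with the naive libraries further apart than the Th17 ones. Mrps26, a small-subunit protein of mitochondria alone, had 66.5 and 58.7 against 44.8 and 44.2 CPM, a log2 of -0.49 (SE 0.15). Their adjusted p ran from 0.0072 to 0.027 by edgeR. None of the 3 was called without the TMM factors, where library sizes are total reads. Mrpl23 was also not called without either naive library, Mrpl30 not without naive library 2 or Th17 library 2, with upper-quartile scaling or with a filter on a mean count of at least 10, and Mrps26 not without naive library 1 or Th17 library 2.

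**Figure D2:**
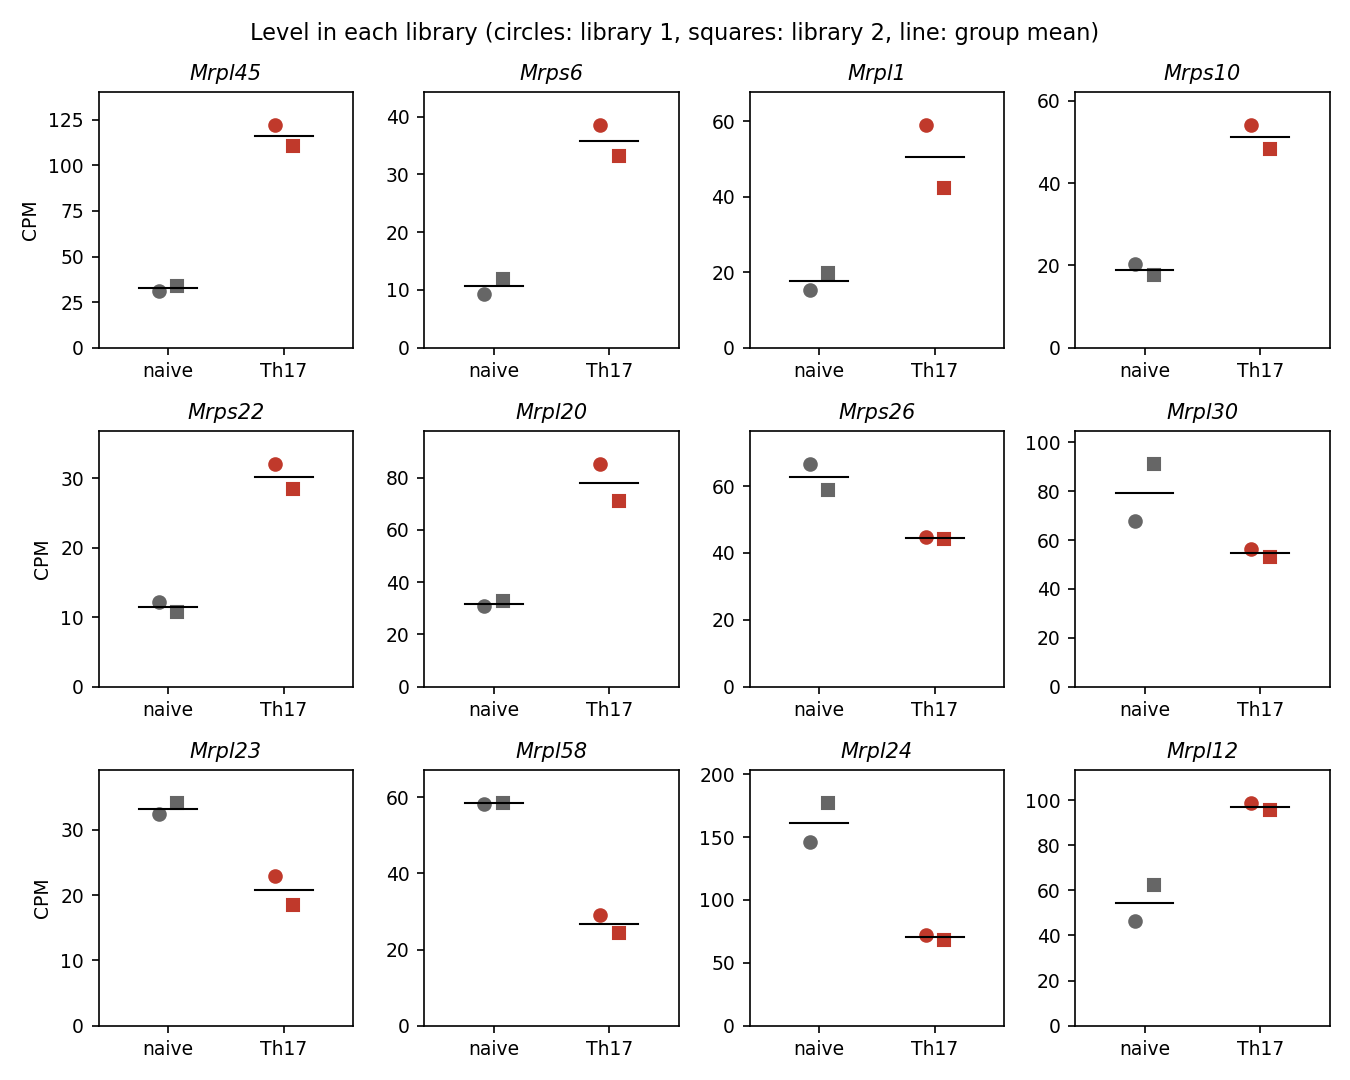
Level in CPM (linear axes from 0) in each naive and Th17 library for the 6 genes with the largest rises, the 5 genes that fell and Mrpl12, with circles for library 1, squares for library 2 and a line at each group mean. In each of the 12 panels the Th17 libraries lie wholly above or wholly below the naive libraries, as for Mrpl45 with 31.0 and 34.1 against 122 and 111 CPM.

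In the small subunit 9 of 26 genes rose and 1 fell, with a median log2 of 0.31, and in the large subunit 23 of 50 rose and 4 fell, with a median of 0.41. These are 34.6% and 46% higher calls beside 34.3% of all tested genes, so the share for the small subunit is at the background, and 3.85% and 8% lower calls beside 30.7%. Genes with bacterial counterparts rose in 18 and fell in 3 of 46, 39.1% and 6.52%, with a median of 0.37. Those found only in mitochondria rose in 14 and fell in 2 of 30, 46.7% and 6.67%, with a median of 0.39. Differences between these groups were not tested. Mrps36, which belongs to neither subunit, rose from 8.91 and 11.48 to 20.1 and 19.1 CPM, a log2 of 0.95 (SE 0.21), and was not called without naive library 1.

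The stalk of the large subunit, where translation factors dock, had mixed calls. Mrpl12, the stalk protein that is also reported to bind the mitochondrial RNA polymerase, rose from 46.5 and 62.4 to 98.5 and 95.5 CPM, a log2 of 0.84 (SE 0.18). Mrpl11, at the stalk base, rose from 22.0 and 23.2 to 38.8 and 31.7 CPM, a log2 of 0.64 (SE 0.17), a call lost without either naive library or without Th17 library 1. Mrpl10, which carries the stalk, had 66.0 and 73.9 CPM in naive and 73.2 and 62.1 in Th17 libraries. Its groups overlapped and its log2 fold change was -0.05 (SE 0.16).

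Of the 3 paralogs related to bacterial S18, 1 was called. Mrps18b rose from 26.4 and 30.8 to 63.9 and 51.8 CPM, a log2 of 1.02 (SE 0.17, edgeR's adjusted p 8.0e-04). Mrps18c, with 14.1 and 13.9 against 19.0 and 17.5 CPM, had a log2 of 0.39 (SE 0.19) and was not called. Mrps18a, with 31.0 and 33.0 against 38.3 and 34.0 CPM, had a log2 of 0.18 (SE 0.15) and was not called, although in both genes the Th17 libraries lay above the naive ones. The difference between the paralogs was not tested.

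Other members with known tasks rose by moderate amounts or were not called. Mrpl44, which has a fold like that of RNase III enzymes, rose from 28.1 and 26.8 to 47.1 and 46.9 CPM, a log2 of 0.78 (SE 0.14). Mrps27, a pentatricopeptide repeat protein of the small subunit, rose from 22.2 and 26.7 to 42.6 and 38.6 CPM, a log2 of 0.73 (SE 0.16), a call lost without naive library 1. Mrps12, at the decoding centre, had 24.6 and 29.6 CPM in naive and 36.2 and 31.9 in Th17 libraries, and its log2 of 0.33 (SE 0.17) was not called. Of the 39 genes not called, 20 had both Th17 libraries above both naive ones and 7 had both below. Among all tested genes, called or not, these orders were found in 44.1% and 40.8%. The shares among all genes not called were not counted. Mrpl55 at a log2 of 0.52 and Mrpl18 at 0.39 were closest to the threshold, with adjusted p of 0.051 and 0.052 by edgeR, and were named after their values were seen.

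Levels differed widely among subunits that occur together in a single particle. On a per-length scale, CPM divided by the kilobases of annotated exon (RPKM), the median gene lay at 12.6 and 13.8 in naive libraries, and at 17.6 and 16.3 in those of Th17 cells, and single genes ran from 2.18 to 78.4. Averaged over the 4 libraries, Mrpl24, Mrpl12 and Mrpl52 had the highest levels and Mrps35, Mrpl47 and Mrpl48 the lowest. The third places were near ties, with Mrpl52 at 46.15 and Mrpl18 at 45.98 RPKM, and Mrpl48 and Mrps25 both at 3.95. Exon length covers every annotated isoform, so a gene with a long, little used exon is understated on this scale. Mrps35 and Mrpl48, with 8631 and 8152 bases of exon, averaged 33.8 and 34.4 CPM in naive and 29.7 and 29.9 in Th17 cells. Mrpl47, with 4419 bases, averaged 13.0 CPM in naive and 20.9 in Th17 cells. In CPM the median gene lay at 30.7 and 33.6 in naive and 43.7 and 38.3 in Th17 libraries.

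In naive cells Mrpl24 led at 71.5 ± 9.70 RPKM (SD, n = 2), ahead of Mrpl52 at 49.5 ± 1.87. In Th17 cells Mrpl24 lay at 31.1 ± 1.47 RPKM, rank 17 of 77, and Mrpl12 led at 63.4 ± 1.39, followed by Mrpl34 at 56.4 ± 5.73 and Mrpl18 at 52.2 ± 1.86. Mrpl34 and Mrpl18, named after their levels were seen, do not differ beyond their spread. Mrpl45 moved from rank 41 to rank 5, at 12.5 ± 0.842 RPKM in naive and 44.8 ± 3.13 in Th17 cells. At the low end, Mrps10 at 2.34 ± 0.233 RPKM was the lowest in naive cells and Mrps35 at 3.44 ± 0.199 the lowest in Th17 cells, where Mrpl48 lay at 3.67 ± 0.252, within the spread of Mrps35.

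The order of the genes was close between replicates and looser between groups. Log2 RPKM across the 77 genes correlated at r = 0.988 between naive libraries and 0.9901 between Th17 libraries, and at 0.852 to 0.867 between a naive and a Th17 library. Exon length, the same divisor in every library, enters these values. Without it, log2 CPM correlated at r = 0.974 between naive and 0.968 between Th17 libraries. Between a naive and a Th17 library log2 CPM correlated at 0.634 to 0.668. These correlations are across genes, which share library and length and are not independent replicates. The SD of log2 RPKM over the genes was 1.12 and 1.11 in naive and 1.02 and 1.05 in Th17 libraries, so the spread among subunits was of similar size in each.

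**Figure D3:**
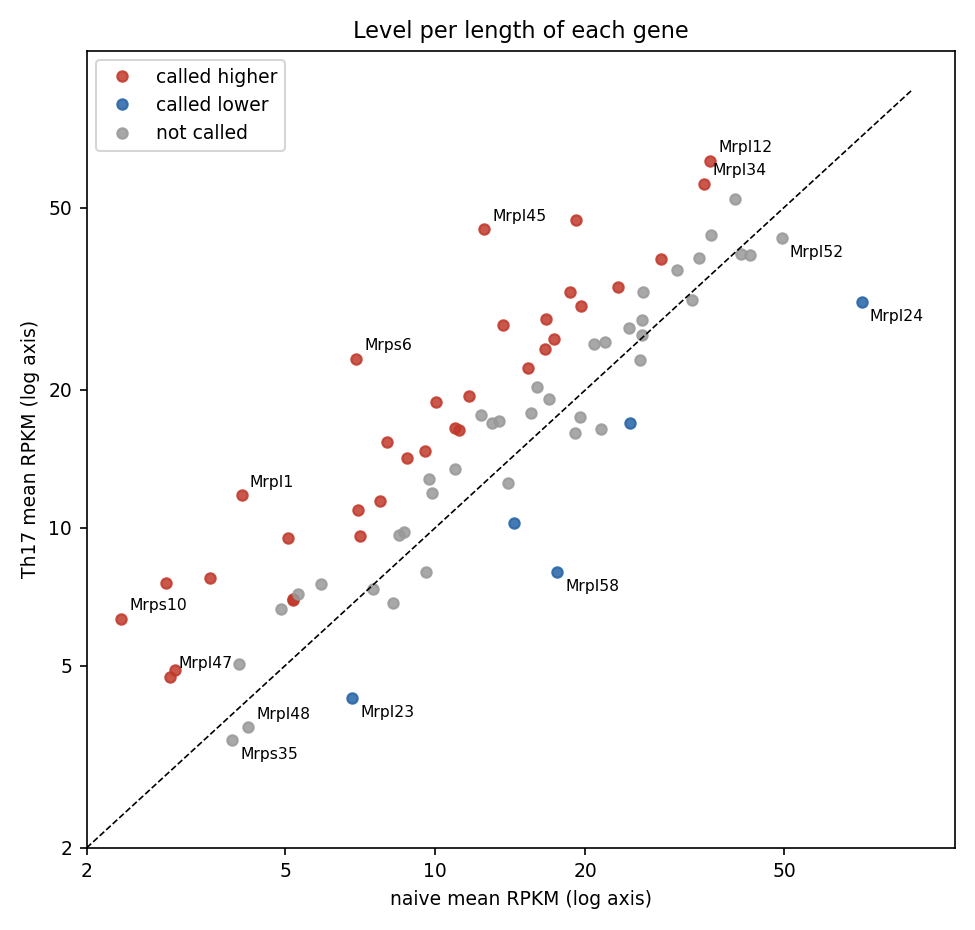
Mean RPKM of each of the 77 genes in naive (x) and Th17 cells (y), 2 libraries each, on log axes with a dashed line of equal levels, coloured by call. Mrpl24, the highest gene in naive cells at 71.5 RPKM, lies below the line at 31.1, and Mrpl45, at 12.5 and 44.8, lies above it.

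The genes that work with the mitochondrial ribosome moved in both directions. Mitoribosomal proteins with other symbols were split, with Chchd1 and Gadd45gip1 higher by a log2 of 0.88 and 0.63, Aurkaip1 lower at -0.49, and Ptcd3 at 0.20 and Dap3 at -0.38 not called. Of 30 assembly and ribosomal RNA maturation genes, 5 rose and 12 fell, with a median log2 of -0.10. Here 16.7% were called higher and 40% lower, beside 34.3% and 30.7% of all tested genes. Among those that rose were Ndufab1 by 1.09, the helicase gene Ddx28 by 1.07 and C1qbp by 0.95. The largest falls were those of Mettl17 at -2.07, Gtpbp6 at -1.48 and the ribosomal RNA methyltransferase gene Mrm1 at -1.25.

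Mettl17, a factor of small-subunit assembly, lay at 73.2 and 68.3 CPM in naive and 18.1 and 15.5 CPM in Th17 libraries. The GTPase gene Mtg2, which acts in large-subunit assembly, fell from 47.0 and 47.7 to 20.4 and 19.8 CPM. The groups were thus well apart in Mettl17 and Mtg2, in the direction opposite to most of the ribosomal proteins. Mtg2 is not among the largest falls named above. In the whole assembly list 5 genes rose, 12 fell and 13 were not called. A test of the difference between the lists was not made.

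Of 14 tested mitochondrial translation factor genes 4 rose and 2 fell, 28.6% and 14.3% beside 34.3% and 30.7% of all tested genes. The release factor gene Mtrf1 rose by a log2 of 1.75, and the elongation factor genes Tsfm and Gfm1 by 0.92 and 0.76. The initiation factor gene Mtif3 and Oxa1l, which encodes the insertase that takes up the new chains, changed by -0.63 and -0.55. Mitochondrial aminoacyl-tRNA synthetase genes, which charge the tRNAs, fell in 8 and rose in 2 of 20, 40% and 10%, with a median of -0.39. Ears2, Vars2 and Tars2 changed by -1.53, -1.29 and -0.90, and Rars2 rose by 0.52.

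Of 20 genes of mitochondrial transcription and RNA processing 5 rose and 2 fell, 25% and 10%. Prorp, Slirp and Tefm rose by a log2 of 1.29, 0.87 and 0.85, while Polrmt, the mitochondrial RNA polymerase gene, changed by -1.08 and Tfam, which packages and transcribes mitochondrial DNA, by -0.80. The 13 genes encoded in mitochondrial DNA were called higher in 2 cases, mt-Nd6 by 2.14 and mt-Atp8 by 2.07, and 0 fell. These are 15.4% and 0%, beside 34.3% and 30.7% of all tested genes. The level of mt-Atp8 was near 0, at 0.265 and 0.493 CPM in naive and 1.98 and 1.14 in Th17 libraries (SE 0.67). The other 11 lay between -0.76 and 0.31. Several of them were near 0 in every library, such as mt-Nd4l at 0.347 to 0.758 CPM, and mt-Nd6 lies on the strand opposite to the other 12, so these counts depend on how reads were assigned.

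Larger complexes give a frame for these values. Oxidative phosphorylation subunits rose in 35 and fell in 9 of 81 tested genes, with a median of 0.27. These are 43.2% and 11.1%, beside 42.9% and 6.49% of the mitoribosomal genes and 34.3% and 30.7% of all tested genes. Cytosolic ribosomal proteins rose in 1 and fell in 73 of 80 tested genes, with a median of -1.25. Cytosolic ribosomal proteins took 11.3% and 14.9% of the reads in naive and 6.87% and 6.48% in Th17 libraries. That change enters any scaling by total reads. On total reads the median of all tested genes shifted by 0.30 in log2, and the part of cytosolic ribosomal proteins in this shift was not tested. The mitoribosomal genes then gave 56 higher and 2 lower calls, beside 43.3% higher and 21.8% lower calls among all genes, and 13 genes changed sign, none of them called in the TMM analysis.

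**Figure D4:**
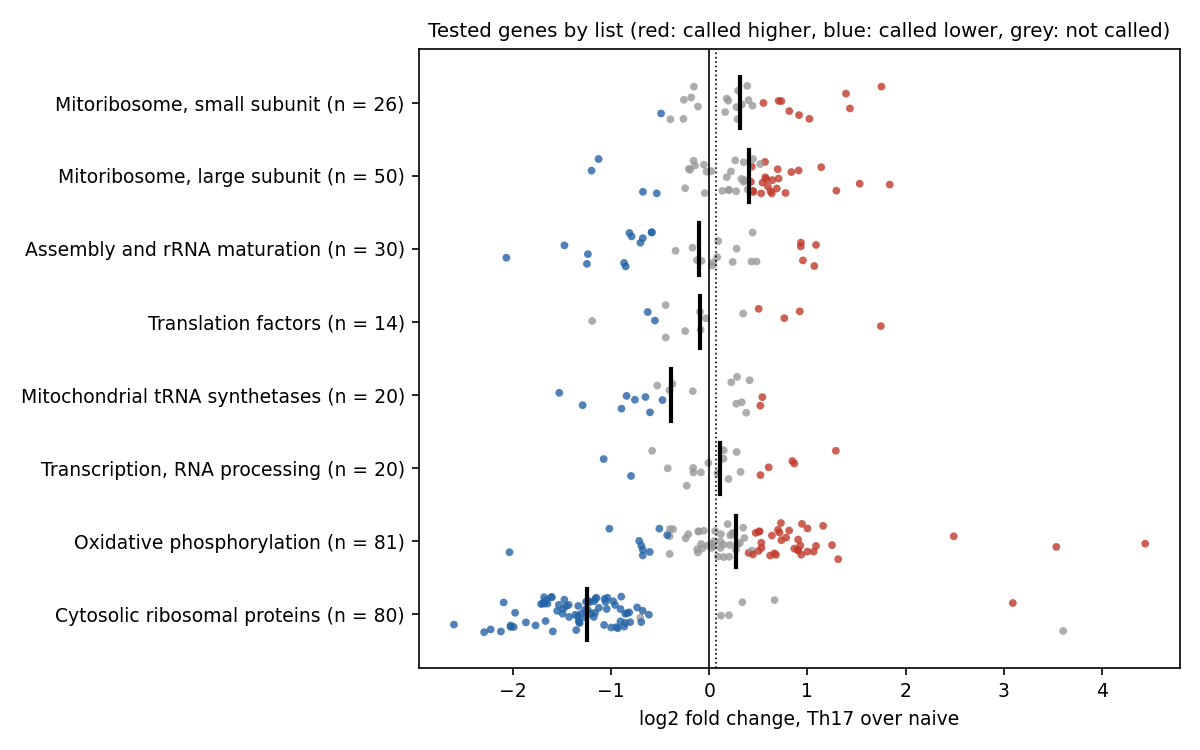
Th17 over naive log2 fold change for the tested genes of each list (points, coloured by call, spread vertically at random), with a black bar at each list's median and a dotted line at the median of all tested genes. The mitoribosomal subunits have medians of 0.31 and 0.41, mitochondrial tRNA synthetases -0.39 and cytosolic ribosomal proteins -1.25.

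The promoters of the family were examined for short motifs of factors known for mitochondrial genes. RefSeq sequences (GRCm38.p6) of 250 bases before to 50 bases after the start were matched for 68 of the 77 genes, 74 promoters in all. Both strands were searched for the core of the site of nuclear respiratory factor 1 (Nrf1), which is GCGCA and GCGC with any base between them, for the YY1 motif, whose letters stand in capitals in the YY1 stretches below, for CCGGAAGT of ETS factors such as GABPA, for the E-box CACGTG bound by MYC, and for the SP motif GGGCGG. No motif here holds another. A match describes letters only and shows no binding.

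The Nrf1 core was in 17.6% of the 74 promoters, beside 10.1% of 12286 promoters of tested genes and 4.60% of all promoters of this length. YY1 letters were in 6.76% beside 2.01% and 0.852%, and ETS letters in 16.2% beside 8.20% and 3.89%. The E-box was in 9.46% beside 10.04% and 7.15%, and the SP motif in 52.7% beside 62.2% and 35.7%. Several promoters of Mrpl2 held the same E-box. Counted by gene, the E-box was in 5 of 68, beside 1145 of 9597 tested genes. It was in 1 of 32 genes called higher, 0 of 5 called lower and 4 of 31 not called. The Nrf1 core was in 5 of 32 promoters of genes called higher, 2 of 5 of genes called lower and 6 of 37 of genes not called. The following stretches show it, in capitals, 5′ to 3′ on the strand named, in the gene with the largest rise, in other genes that rose, and in Mrpl30, which fell.
Mrpl45, chr11:97315586-97315615, plus strand: gaagcctcctGCGCAGGCGCagctggctct
Mrpl45, chr11:97315668-97315697, plus strand: tggtttcattGCGCACGCGCgaacccactg
Mrpl17, chr7:105811117-105811146, minus strand: aggctctgatGCGCACGCGCaaacgcggta
Mrpl12, chr11:120484546-120484575, minus strand: gcggtgcgacGCGCAGGCGCggagacaata
Mrpl44, chr1:79775973-79776002, plus strand: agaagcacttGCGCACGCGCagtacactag
Mrpl30, chr1:37890384-37890413, minus strand: atagaagacaGCGCAGGCGCagcggcgtca

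Mrpl45 held the core at 3 places of its promoter, with first bases 120 and 38 bases before and 24 bases after the start, the last on the minus strand. It was also the gene with the largest rise. Mrpl30 held it as well and fell, so the core was found on both sides. The YY1 letters were in 5 promoters, 2 of genes called higher, 0 of genes called lower and 3 of genes not called (Mrps11, Mrps18a and Mrpl37). They lay just after the start in 4 of them, including Mrps18a and Mrpl37. The stretches of the genes that rose, Mrps27 and Mrpl35, show the letters in capitals.
Mrps27, chr13:99344790-99344819, plus strand: ggtgcgctccAAGATGGCGGctcccatggt
Mrpl35, chr6:71823742-71823771, minus strand: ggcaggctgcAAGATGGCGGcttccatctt

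Genes of the factors themselves were measured in the same libraries. Nrf1 fell from 73.5 and 90.8 to 57.6 and 54.3 CPM, a log2 of -0.55 (SE 0.17), while Yy1 at -0.05 and Gabpa at -0.07 were not called and their groups overlapped. Myc rose from 96.7 and 80.5 to 353 and 269 CPM, a log2 of 1.81 (SE 0.19). It was the sole member of 9 tested factor and coactivator genes to rise, and Nrf1, Gabpb2 (-1.17) and Ppargc1b (-2.64) fell. These are 11.1% higher and 33.3% lower calls, beside 34.3% and 30.7% of all tested genes, so the share of falls is near the background. Ppargc1a, a coactivator of mitochondrial growth, was not tested. It had 187 reads in Th17 library 2 and 0 reads in the 3 other libraries, so that library stood alone.

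Many mitoribosomal protein genes start close to the start of another gene on the opposite strand. In GENCODE M21 (mm10), 33 of the 77 genes, 42.9%, had the start of another protein-coding gene on the opposite strand within 1000 bases, beside 16.9% of all tested protein-coding genes. In some of these pairs the genes point away from each other, and in others their starts overlap. Mrpl46 and Mrps11 form a pair with each other, with overlapping starts. In 29 distinct pairs both genes were tested, and 18 pairs had log2 fold changes of the same sign. Both genes rose in 4 pairs, 1 pair fell together, and in 1 pair the mitoribosomal gene rose while its partner fell. Over these 29 pairs, 12 mitoribosomal genes were called higher, and 9 partners were called higher and 9 lower. Among all tested genes 34.3% were called higher and 30.7% lower. Whether the pairs moved together more often than these shares give was not tested.

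Partners moved much further than the mitoribosomal genes in several pairs. Mrpl57 had a log2 of 0.27 and was not called, while its partner Ska3, a gene of mitotic chromosome attachment that starts 49 bases away, rose by 5.41. Mrpl27 rose by 0.64 and Eme1, a DNA repair endonuclease gene whose span it overlaps by 198 bases, by 3.47. Mrps7 rose by 0.82 and its partner Gga3 changed by -1.35. Mrpl49, at -0.25, was not called, and Fau, the gene of a cytosolic ribosomal protein that starts 59 bases away, changed by -1.50. Opposite-strand overlap of gene spans was found in 23 of the 77 genes, and reads in such spans may be shared as noted for Mrpl24.

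**Figure D5:**
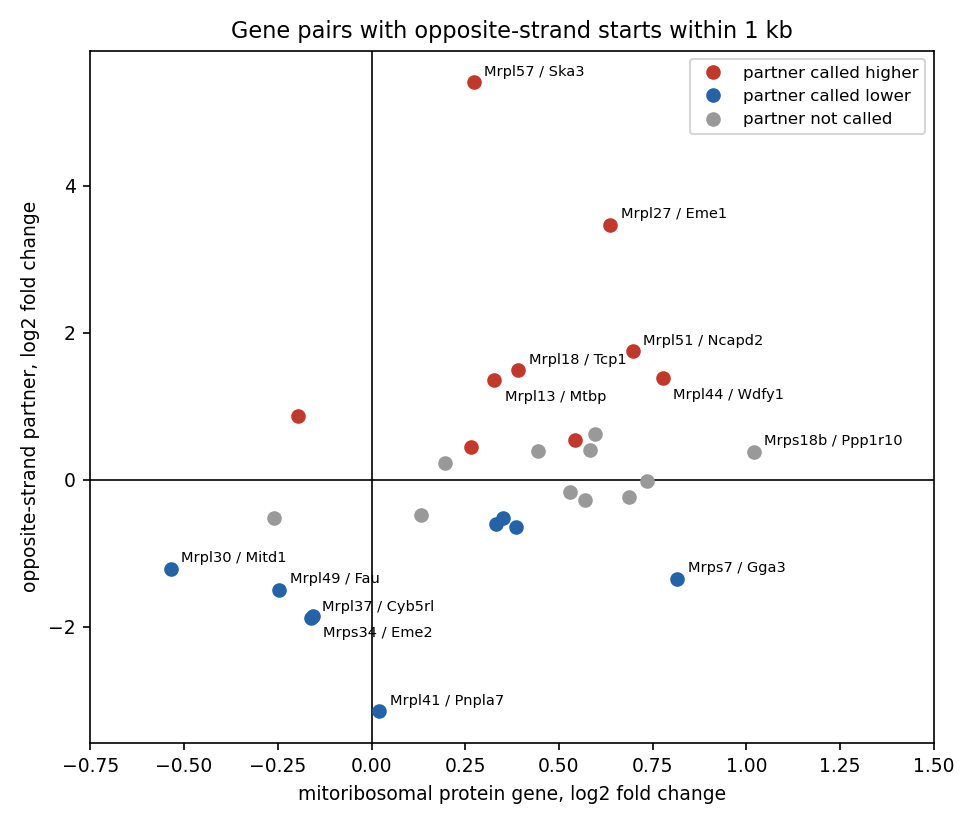
Th17 over naive log2 fold change of mitoribosomal protein genes (x) and of their opposite-strand partners with a start within 1000 bases (y), 29 pairs, coloured by the partner's call. Partners spread from -3.15 (Pnpla7 beside Mrpl41) to 5.41 (Ska3 beside Mrpl57), while their mitoribosomal genes lie between -0.54 and 1.02.

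Editing of adenosine to inosine was listed in 2 of the 77 genes. The table of naive and Th17 cells listed 869 sites in 350 genes, 3 of these sites in Mrpl24. The table of wild-type and DDX5-deficient Th17 cells listed 355 sites in 143 genes, 1 of them in Mrps17. At position 87921451 of chromosome 3 (mm10), in an intron of Mrpl24, 21.8% and 18.03% of reads were edited in naive libraries 1 and 2, and 21.7% and 33.3% in Th17 libraries 1 and 2. The last value rests on 4 of 12 reads, with an exact Clopper-Pearson 95% interval of 9.92% to 65.1%, so no difference was detectable at this depth.

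The other Mrpl24 sites were listed for a single group each. Position 87921526, also in an intron, was listed at 58.3% and 33.3% in the Th17 libraries, the latter from 2 of 6 reads (4.33% to 77.7%). Position 87921682, in the 5′ untranslated part of an alternative Mrpl24 transcript, was listed at 8.47% and 13.0% in the naive libraries, where the depth is unknown. Mrpl24 is the gene with the largest fall in the family. A site that is not listed for a group may lack reads there.

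In Mrps17, position 129720759 of chromosome 5, in an untranslated part of an annotated transcript, was edited at 80.0% and 40.0% in the wild-type and 76.9% and 75% in the DDX5-deficient Th17 libraries. The 40.0% rests on 2 of 5 reads (5.27% to 85.3%), and the wild-type libraries span the DDX5-deficient ones. Mrps17 itself was not called between naive and Th17 cells, with 50.4 and 56.5 against 48.9 and 39.9 CPM. The sites in annotated exons are shown with the edited adenosine in capitals and 10 bases on each side, from GENCODE M21 transcripts on the plus strand (mm10).
Mrpl24, chr3:87921672-87921692: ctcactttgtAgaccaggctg
Mrps17, chr5:129720749-129720769: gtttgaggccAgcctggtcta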

How the data were processed

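Ribosome-depleted RNA of mouse CD4 T cells was sequenced, with 8 libraries in 4 groups of 2. The build was mm10, and STAR 2.6.1a, DESeq2 1.18.1 and featureCounts were used, per the submitters' processing notes. The labels name SAILOR for the edited sites. The settings and the use of strand are not given in the sources used here. The deposited expression table gives raw counts per gene, a normalized signal (counts divided by 1 size factor per library by the authors) with its mean, and the authors' log2 fold change, Wald score and p-value. The deposited editing tables give a fraction of edited reads per site, a call confidence as a fraction and a coverage count, per the file headers. Each editing table gives 1 coverage column without a library name. It was read as that of library 2 (Th17 or wild-type), for which the product of fraction and coverage lay within 0.01 of a whole number at 100% of the sites giving both, against 6.52% and 7.04% for library 1.

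The counts were tested here with edgeR 4.0.16 in R 4.3.3 (filterByExpr, TMM, robust quasi-likelihood fit on group, Benjamini-Hochberg adjustment over 11989 genes, called at adjusted p under 0.05), with 2 libraries per group. The fit was also run on simulated data, and no result of that run is given here. DESeq2 1.42.0, other scalings, filters, a replicate block and leaving out each library were tried. Gene lengths and positions came from GENCODE M21, of the build of the files. Intervals at 95% cover counting error only, since reads are not independent molecules. P-values measure the spread between these libraries. Named were the 6 largest rises and falls among called genes (only 5 fell), the 3 highest and 3 lowest levels per length, genes with edited sites and genes of set roles. Members and lists were chosen with earlier results of these data known. Some genes of the lists are not reported here by name.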

Additional observations from a re-analysis of the deposited data

How the results depend on the processing

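With library sizes taken as total reads, 56 mitoribosomal genes were called higher and 2 lower, and the median log2 fold change was 0.68. Leaving out each library in turn, the calls ranged from 12 to 36 higher and from 3 to 5 lower, the median from 0.23 to 0.46, and the calls over all genes from 5003 to 8519, with 2380 to 4847 higher. The lone library of a group was then assumed to vary like the other group. The lowest counts came without a naive library, and the cause was not tested. Without naive library 1 or Th17 library 1 the family's share of higher calls was below that of all tested genes. Under the other scalings, filters and DESeq2 the calls ran from 25 to 46 higher and 4 to 5 lower, within 1.5 times the main count. The family's median minus that of all tested genes was 0.32 in the main analysis. It was 0.07 without naive library 1 (13149 genes tested) and 0.11 without Th17 library 1 (12963 genes tested). It was -0.0034 without a filter and -0.0048 with DESeq2, where all 16308 genes entered the median. A change of scaling shifts all genes nearly alike and so cannot test this difference. In 847 values of single genes under 11 alternatives, 695 kept their direction and side of the threshold, 71 lost a call and 52 gained one. A further 29 values, of 16 genes that were not called, changed sign, and 0 values of called genes did. A total of 12 of 33 higher and 2 of 5 lower calls held in all 11. With replicate number as a block, 33 genes were called higher and 5 lower, with a median of 0.38 and 7738 calls over all genes. Correlations of same-numbered deviations were -0.0494, which 2 against 2 libraries make equal for both pairs. The labels do not say whether the number shared by library 2 of both groups marks the same animal, and the block was used only as an alternative. Depth limits the edited sites, of which 3 values rest on 5 to 12 reads.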
